A study of Mus musculus with 4 samples.

Results

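The insulin-like growth factor (IGF) ligands, their receptor and the IGF binding proteins were followed across the cell types of the mouse fracture callus, the repair tissue that forms around a broken bone. The 9 genes were taken by name from the 32285 genes of the count matrices: the ligands Igf1 and Igf2, the receptor Igf1r, and the binding protein genes Igfbp2, Igfbp3, Igfbp4, Igfbp5, Igfbp6 and Igfbp7. All 9 were present, and together they held 1463863 of the 490126591 unique molecular identifiers (UMIs, 1 per captured transcript) of the cells analysed. The questions were how Igf1 in macrophages compares with Igf1 in mesenchymal cells, which cells carry each binding protein transcript, and how both differ between control and arthritic mice.

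The callus cells came from wild-type male C57BL/6J mice whose right tibia was fractured at 3 months of age. Control mice received vehicle (PBS), and the mice of the second arm received arthritogenic K/BxN serum, which gives a rheumatoid arthritis (RA) model with systemic inflammation, injected from the day of fracture onwards. Tissue was scraped from the periosteal surface at 4 or 7 days after fracture (dpf), calluses of several animals were pooled, 4 according to the series record, and dissociated with collagenase, a collection that the study chose to limit cells of bone and marrow. The study's methods give a smaller number of samples per group than the series record. Each of the 4 groups (control_4d, control_7d, RA_4d and RA_7d) was 1 pooled library, described as a batch of its own, so animal, batch and condition cannot be told apart, no p-value was computed between conditions, and every interval below covers counting error only.

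IGF1 and IGF2 are small secreted growth factors that act through the tyrosine kinase receptor IGF1R, and IGF1 is known for driving growth of bone and cartilage and for supporting repair by muscle and connective tissue cells. Most extracellular IGF is held by binding proteins, which prolong its life, keep it from the receptor or store it in the matrix until proteases such as PAPP-A, the product of Pappa, release it. IGFBP2 to IGFBP6 bind IGFs with high affinity, IGFBP6 prefers IGF2, and IGFBP7 is a related protein of low affinity that is abundant in vessel walls.

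All members are protein-coding genes. On GRCm38, Igf1 lies on chromosome 10 (87858265 to 87937042, + strand), Igf2 on chromosome 7 (142650766 to 142666816, - strand) and Igf1r elsewhere on chromosome 7 (67952827 to 68233668, + strand). Igfbp2 (72824503 to 72852474, + strand) and Igfbp5 (72857932 to 72874884, - strand) are neighbours on chromosome 1, with 5457 bases between their ends. Igfbp3 (7206086 to 7213923, - strand) and Igfbp4 (99041244 to 99054392, + strand) are on chromosome 11, Igfbp6 on chromosome 15 (102144362 to 102149511, + strand) and Igfbp7 on chromosome 5 (77349240 to 77408041, - strand). The antisense genes Igf1os and Igf2os overlap Igf1 and Igf2, and the + strand gene Polr2b overlaps Igfbp7.

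After filtering, 25479 of 34038 barcodes remained, between 4110 (RA_4d) and 8223 (RA_7d) per library, with 83405494 to 156567619 UMIs per library and median depths of 16094 to 17632 UMIs per cell. The libraries shared 10 to 31 barcodes per pair. Cells were clustered without any gene of a 59-gene IGF list, which holds the members, so the levels below played no part in drawing the classes. Of 19 clusters, 17 could be named from markers. Macrophage-like cells (6627 cells) were an Arg1 macrophage-like and a resident macrophage-like class. Mesenchymal-like cells (8354 cells) were skeletal progenitor-like, fibroblast-like, fibroblast precursor-like and cycling mesenchymal-like classes, with tenocyte precursor-like cells (781) kept apart. The skeletal progenitor-like name was given to clusters led by chondrogenic, osteogenic or committed progenitor markers. This class scored highest for chondrogenic markers, with Ibsp, Col2a1 and Col10a1 leading, so its name does not set progenitors apart from cartilage-like cells. Endothelial-like cells (3057 cells) were a Selp-led and a Gpihbp1-led class, after the adhesion molecule of venules and the lipoprotein lipase anchor of capillaries. Marker lists used in naming were also summed, which describes the classes and does not test the labels. Levels are in CPM, counts of a gene per 1000000 counts of the cells summed. The 7 macrophage markers (such as Csf1r and C1qa) summed to 6847 to 9701 CPM in the macrophage-like cells of the 4 libraries. In the mesenchymal-like cells they summed to 82.9 to 188 CPM. The 7 mesenchymal markers (such as Prrx1 and Col1a1) summed to 104 to 539 CPM in macrophage-like and 24520 to 38420 CPM in mesenchymal-like cells. No marker of either list was at 0 in any of these sums. The mesenchymal list in macrophage-like cells was therefore 0.423% to 1.49% of its own level, which served as a yardstick for free RNA and mixed droplets.

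Igf1 was highest in fibroblast-like cells and was also present in both macrophage-like classes. Over the 4 libraries its level averaged 1079 CPM in fibroblast-like cells (range 894 to 1321), 766 in tenocyte precursor-like cells (418 to 1057), 411 in skeletal progenitor-like cells (253 to 670) and 407 in fibroblast precursor-like cells (272 to 532). Resident macrophage-like cells followed at 320 CPM (260 to 400) and Arg1 macrophage-like cells at 208 CPM (148 to 296). The ranges of neighbouring classes overlapped throughout this order, so only classes further apart were separated: fibroblast-like cells stood above both macrophage classes in every library. Cycling mesenchymal-like cells, at 136 CPM, Selp-led endothelial-like cells, at 114 CPM, and all other named classes, from 10.4 CPM in dendritic cell-like cells to 60.6 CPM in pericyte-like cells, carried less. Skeletal progenitor-like cells were not uniform. At a finer clustering (resolution 1), their Ibsp-led cluster averaged 159 CPM of Igf1 (52.5 to 258) and their Sfrp1-led cluster 620 CPM (391.5 to 1015).

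**Figure D1:**
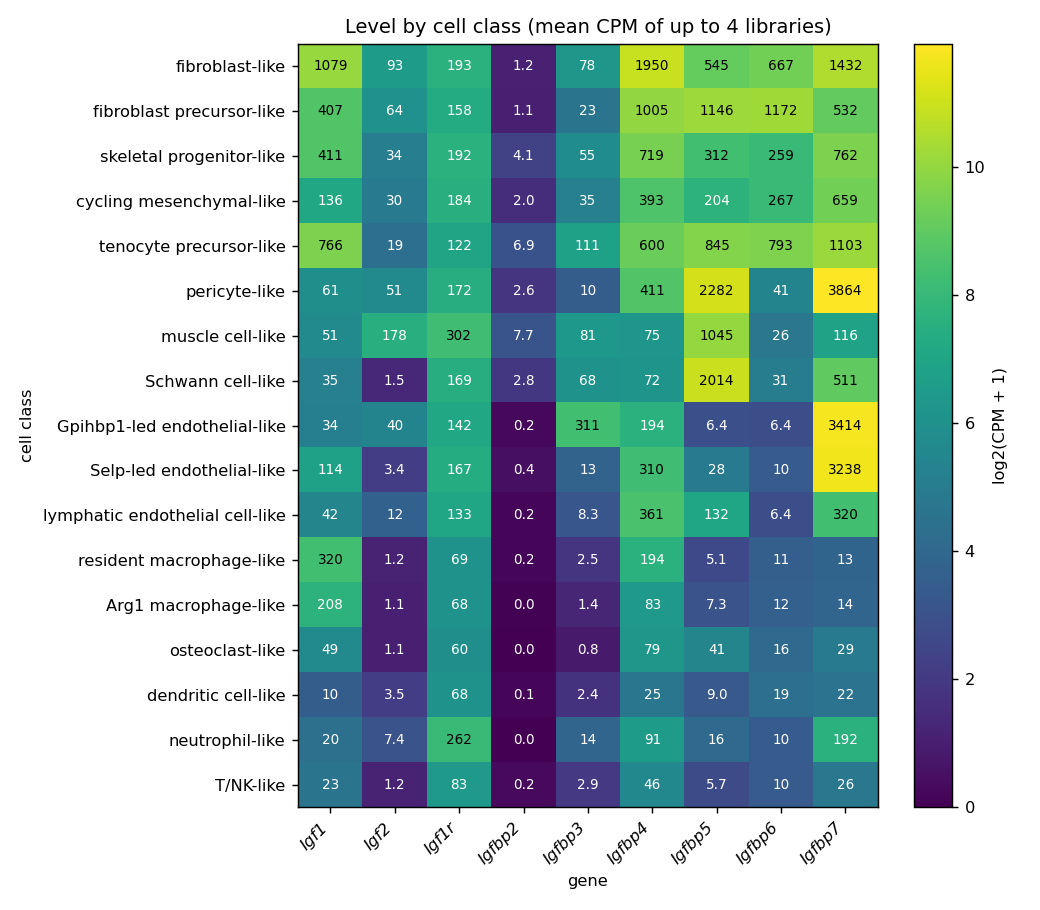
Mean level of each gene (columns) in each named cell class (rows), in CPM of the class over the 4 libraries, printed in the cells and coloured on a log2(CPM + 1) scale. Igf1 reads 1079 in fibroblast-like and 320 in resident macrophage-like cells, Igfbp3 stands out in Gpihbp1-led endothelial-like cells at 311, and Igfbp7 reaches 3864 in pericyte-like cells.

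Taken over whole lineages, Igf1 was lower in macrophage-like than in mesenchymal-like cells in each library. In control_4d it was at 212 CPM in macrophage-like cells (7305 UMIs) and 483 CPM in mesenchymal-like cells (13133 UMIs), a 2.28-fold difference (95% counting interval 2.21 to 2.34). In control_7d the values were 274 and 566 CPM (2.07-fold, 2.01 to 2.13). In RA_4d they were 203 and 457 CPM (2.25-fold, 2.17 to 2.34), and in RA_7d 354 and 786 CPM (2.22-fold, 2.16 to 2.29). The ratio thus stayed within a narrow band while both lineages carried their highest Igf1 in RA_7d and their lowest in RA_4d: the mean log2 ratio was -1.14 with an SD of 0.06 over the 4 libraries, which are 4 conditions and not replicates of 1. The order held in every alternative processing that was run, but the mean ratio fell short of 2-fold with trimmed-mean (TMM) scaling (log2 -0.94), which moved the median of all genes from -0.15 to 0.06, and with clusters made without integration (log2 -0.98).

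Macrophage-like cells held Igf1 at 43.9% to 48.4% of the mesenchymal level, and T/NK-like cells at 2.68% to 6.82%. The mesenchymal marker list in macrophage-like cells was 0.423% to 1.49% of its mesenchymal level. The part of free RNA in these values was not tested. With every cell thinned to 4000 UMIs, 41.6% of macrophage-like cells had an Igf1 UMI in control_4d (Clopper-Pearson 95% interval 39.6 to 43.7), 49.8% in control_7d (47.5 to 52.1), 36.5% in RA_4d (34.0 to 39.2) and 60.9% in RA_7d (58.0 to 63.7). In T/NK-like cells thinned in the same way the share was between 3.33% and 7.58%. Without thinning the shares were 56.2% to 76.7% and 4.44% to 11.55%, at median depths of 7345 UMIs in T/NK-like cells and 12888 in resident macrophage-like cells. Resident macrophage-like cells were above Arg1 macrophage-like cells in each library, at 296 against 148 CPM in control_4d, 260 against 151 in RA_4d, 325 against 236 in control_7d and 400 against 296 in RA_7d. Osteoclast-like cells, named for the bone-resorbing relatives of macrophages, had 18.9 to 105 CPM, with the highest value in RA_7d, which held 37 of them. Cycling markers scored next in this class of 881 cells (1.96, beside 2.7 for osteoclast markers). At resolution 1 the osteoclast-like cluster held 379 cells. An unnamed Top2a Pclaf cluster of 505 cells scored first for cycling and next for osteoclast markers, so the class is not osteoclasts alone. At a finer clustering (resolution 1), macrophage-like clusters spread widely in Igf1. The Ccl8-led and Pf4-led resident macrophage-like clusters averaged 421 CPM (365 to 493) and 319 CPM (222 to 467) and Arg1 macrophage-like cells 221 CPM (172 to 294). The H2-Aa-led and Mmp12-led MHC class II macrophage-like clusters averaged 125 CPM (65.5 to 190) and 57.7 CPM (29.3 to 91.7). At resolution 0.5, the unnamed Retnla Ccr2 cluster was not counted among the macrophage-like cells, although its macrophage markers summed to 2083 to 4409 CPM. Its Igf1 averaged 16.23 CPM (4.174 to 22.02), beside 23.01 CPM in T/NK-like cells. The 43.9% to 48.4% above therefore does not cover all cells with macrophage markers.

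The share of all Igf1 transcripts found in macrophage-like cells was larger at 4 than at 7 dpf, and so was their share of all UMIs. Macrophage-like cells held 29.9% of the Igf1 UMIs of all kept cells in control_4d and 25.5% in RA_4d, against 10.35% in control_7d and 5.42% in RA_7d. They were 41.6%, 33.4%, 23.9% and 14.0% of the cells in these libraries and held 31.7%, 24.3%, 15.1% and 8.725% of all UMIs. Shares of cells in tissue and in the dissociated sample cannot be told apart. Mesenchymal-like cells held 53.7%, 63.4%, 75.75% and 84.0% of the Igf1 UMIs in the same order, beside 25.1%, 26.7%, 53.6% and 60.8% of all UMIs. They were thus the larger source in all 4 libraries.

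**Figure D2:**
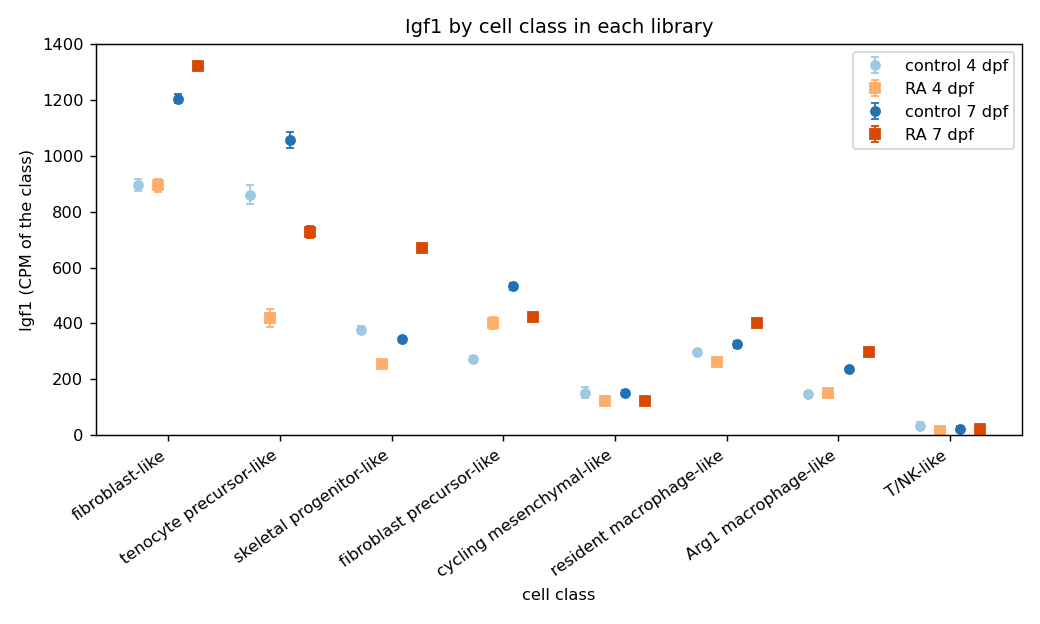
Igf1 in CPM of the class (y axis) for the mesenchymal-like classes, tenocyte precursor-like cells, both macrophage-like classes and T/NK-like cells (x axis), 1 point per library with its exact Poisson 95% interval. Resident macrophage-like cells sit at 260 to 400, below fibroblast-like cells at 894 to 1321 and above T/NK-like cells at 15.25 to 32.95.

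Igf2, the fetal-type ligand that comes from an imprinted gene, had a different order of classes by level. Mesenchymal-like cells held 26.9% of the Igf2 UMIs in control_4d and 23.8% in RA_4d, but 82.9% in control_7d and 73.9% in RA_7d. Of all UMIs they held 25.1%, 26.7%, 53.6% and 60.8% in the same order. By level, Igf2 was highest on average in muscle cell-like cells, at 98.0 CPM in control_4d, 200 in RA_4d, 181 in control_7d and 232 in RA_7d. Pericyte-like cells (43.8 to 53.3 CPM) and Gpihbp1-led endothelial-like cells (33.6 to 45.2 CPM) held steady levels in all 4 libraries, whereas fibroblast-like cells ran from 6.31 CPM in RA_4d to 292 CPM in control_7d. Macrophage-like cells had 0.198 to 2.61 CPM, 1.87% to 3.26% of the mesenchymal level, beside 0.423% to 1.49% for the mesenchymal marker list. In T/NK-like cells Igf2 ran from 0.0% in control_7d to 8.24% in control_4d, and the part of free RNA in the macrophage values was not tested. The ligand transcripts of macrophages were Igf1 almost alone.

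Igf1r was the most evenly spread member. Muscle cell-like cells (302 CPM on average, 209 to 428.5) and neutrophil-like cells (262.5 CPM, 219 to 293.5) were highest, and their ranges overlapped. The mesenchymal, pericyte, Schwann and endothelial classes averaged 122.5 to 193.2 CPM. Resident macrophage-like (69 CPM), Arg1 macrophage-like (67.6 CPM) and osteoclast-like cells (60.3 CPM) were at the low end, so that macrophage-like cells had Igf1r at 32.9% to 42.7% of the mesenchymal level.

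The binding proteins did not all have their highest level in the same class. Igfbp4, which restrains IGF action until PAPP-A cleaves it, was highest in fibroblast-like cells, at 1640 CPM in control_4d, 1812 in RA_4d, 2145 in control_7d and 2203 in RA_7d. All 4 values were above the highest value of any other class. It was also the binding protein with the highest level in macrophages: resident macrophage-like cells had 161 to 233 CPM, Arg1 macrophage-like cells 70.1 to 94.2 CPM and T/NK-like cells 27.0 to 57.9 CPM. Per lineage, macrophage-like cells held Igfbp4 at 11.7% to 13.5% of the mesenchymal level, against the 0.423% to 1.49% of the marker list.

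Igfbp5, a matrix-binding protein of bone and muscle, was carried by pericyte-like cells (1755 to 3072 CPM), Schwann cell-like cells (1334 to 2649 CPM), fibroblast precursor-like cells (378 to 2154 CPM) and muscle cell-like cells (643 to 1277 CPM). Igfbp6 was restricted to the connective tissue classes: fibroblast precursor-like cells averaged 1172 CPM (573 to 1539), tenocyte precursor-like cells 793 CPM (550 to 1123) and fibroblast-like cells 667 CPM (446 to 961), while pericyte-like, muscle, Schwann, endothelial and blood cell classes averaged 6.35 to 40.8 CPM. Skeletal progenitor-like cells averaged 312 CPM of Igfbp5 (94.1 to 849.5) and 259.5 CPM of Igfbp6 (58.95 to 569), and cycling mesenchymal-like cells 204 CPM (101 to 391.5) and 267 CPM (56.9 to 530), with ranges that overlapped those of fibroblast-like cells for both genes.

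Igfbp3 and Igfbp7 had their highest levels in vessel classes but were not confined to them. At 7 dpf mesenchymal-like cells held more of the Igfbp7 UMIs than endothelial-like cells, 44.8% against 37.3% in control_7d and 50.7% against 30.5% in RA_7d. For Igfbp3 the shares were 46.25% against 35.65% in control_7d and 63.6% against 19.5% in RA_7d. Of all UMIs, mesenchymal-like cells held 53.6% in control_7d and 60.8% in RA_7d, and endothelial-like cells 9.2% and 10.7%. At 4 dpf endothelial-like cells held the larger share of both genes in control and in RA. They held 13.35% and 12.1% of all UMIs there, beside 25.1% and 26.7% in mesenchymal-like cells. Igfbp3, the main carrier of IGF1 in blood, was highest in Gpihbp1-led endothelial-like cells, at 332 CPM in control_4d, 209 in RA_4d, 453 in control_7d and 251 in RA_7d, and these values did not overlap those of any other class. The Selp-led endothelial-like class had only 3.76 to 29.0 CPM. At resolution 1, Igfbp3 averaged 352 CPM (216 to 514) in a Cldn5-led endothelial-like cluster and 24.5 CPM (10.6 to 52.4) in an Aplnr-led one. Igfbp7 was shared by pericyte-like cells (3148 to 4715 CPM), Gpihbp1-led (2843 to 3757 CPM) and Selp-led endothelial-like cells (2680 to 3664 CPM), whose ranges overlapped and stood above those of all other classes. Igfbp2 was at the edge of detection, with 981 UMIs in all cells and a highest class mean of 7.65 CPM in muscle cell-like cells. In Arg1 macrophage-like cells Igfbp2 averaged 0.0404 CPM.

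Compared within each library, 8 of the 9 members had enough UMIs (50 or more over both lineages) for a macrophage to mesenchymal ratio. All 8 were at least 2-fold lower in macrophage-like cells in each of the 4 libraries and none was higher. Some met the minimum only through mesenchymal UMIs, so lower was the only call open to them. In RA_4d, macrophage-like cells had 4 UMIs of Igf2, 8 of Igfbp3 and 23 of Igfbp5. Among all 13444 genes compared in this way, 21% were lower and 12.6% higher. The log2 ratios, with 1 CPM added, averaged -6.47 for Igfbp5, -6.00 for Igfbp7, -5.51 for Igfbp6, -4.30 for Igfbp3, -4.05 for Igf2, -3.00 for Igfbp4, -1.41 for Igf1r and -1.14 for Igf1. The added CPM shrinks ratios at low counts, so this order is not reliable for such members. Igf2 in RA_4d was 9.675-fold lower with it and 53.6-fold lower without it. In percent of the mesenchymal level, macrophage-like cells held 0.593% to 1.34% of Igfbp5, 1.59% to 2.47% of Igfbp6 and 0.78% to 2.1% of Igfbp7, values of the same order as the marker list at 0.423% to 1.49%. Igf1, Igf1r and Igfbp4 were the members held at 11.7% or more in each library, and in T/NK-like cells Igfbp4 stood at 1.97% to 5.89% and Igf1r at 19.8% to 55.3%.

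Put together, the transcripts of the 6 binding proteins outnumbered those of both ligands in every named class except the Arg1 and resident macrophage-like classes. Schwann cell-like cells of RA_4d, which had 2 ligand UMIs, were left aside. The unnamed Retnla Ccr2 cluster scored highest for MHC class II macrophage markers, and its macrophage markers summed to 2083 to 4409 CPM. It had at least 3.26 binding protein UMIs per ligand UMI in each library, so the low ratio did not extend to all cells with macrophage markers. UMI counts of transcript ends do not depend on transcript length, although capture can differ between genes. Macrophage-like cells had 0.550 to 0.808 binding protein UMIs per ligand UMI, mesenchymal-like cells 3.89 to 6.79 and endothelial-like cells 26.2 to 61.3. The endothelial value rested mostly on Igfbp7, the member of low affinity. Igfbp7 made up 53784 of 59856 endothelial binding protein UMIs in control_4d, 29417 of 33752 in RA_4d, 47414 of 53811 in control_7d and 50301 of 57946 in RA_7d. In mesenchymal-like cells it was 26353 of 91605, 21593 of 54601, 57000 of 204627 and 83735 of 415777. Per cell, thinned to 4000 UMIs, a mesenchymal-like cell showed on average 2.37 (RA_4d) to 3.30 (RA_7d) of the 6 binding protein genes, an endothelial-like cell 1.67 to 1.81 and a macrophage-like cell 0.337 to 0.605. None of the 6 was seen in 47.6% to 67.6% of macrophage-like cells, compared with 0.349% to 4.28% of mesenchymal-like cells.

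**Figure D3:**
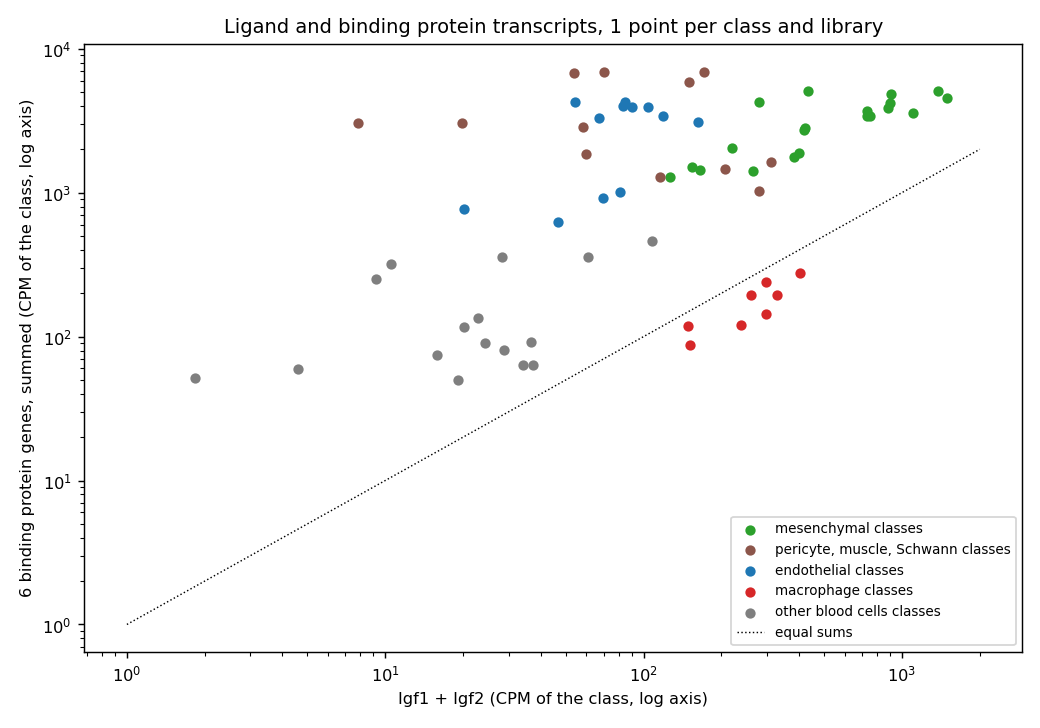
Summed CPM of the 6 binding protein genes (y axis, log scale) against summed CPM of Igf1 and Igf2 (x axis, log scale), 1 point per named cell class and library, with a dotted line where both are equal. The 8 points of the macrophage-like classes lie below the line, at 0.483 to 0.811 binding protein UMIs per ligand UMI, and the points of all other classes lie above it.

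In mesenchymal-like cells, Igfbp5 and Igfbp6 were lower in RA than in control at 4 dpf and higher at 7 dpf, Igf2 was lower in RA at 7 dpf, and Igfbp2, at very low counts, was higher in RA at 4 dpf. A gene was called here when its CPM, with 1 CPM added, differed at least 2-fold between the pair of libraries and it had 50 or more UMIs. At 4 dpf, 3 of 9 members were called, 1 higher and 2 lower in RA, while of 13978 genes 0.723% were higher and 0.923% lower. At 7 dpf, 2 of 9 were called, 1 higher and 1 lower, while of 17140 genes 1.7% were higher and 1.2% lower. The median log2 ratio of the 9 members was -0.07 at 4 dpf and 0.44 at 7 dpf, beside 0.02 and -0.04 for all genes.

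Igfbp5 was at 529 CPM in control_4d and 190 CPM in RA_4d, and at 427 CPM in control_7d and 1177 CPM in RA_7d. The RA library was thus 2.78-fold lower at 4 dpf (95% counting interval 2.69 to 2.88) and 2.76-fold higher at 7 dpf (2.73 to 2.79). Igfbp6 was at 804 CPM in control_4d and 255.5 CPM in RA_4d, and at 445 CPM in control_7d and 873 CPM in RA_7d. It was 3.15-fold lower in RA at 4 dpf (3.06 to 3.24) and 1.96-fold higher at 7 dpf (1.94 to 1.99), which is just short of the 2-fold mark. In these lineage sums RA_7d held the highest value of the 4 libraries and RA_4d the lowest for both genes, with the controls between them. In skeletal progenitor-like and cycling mesenchymal-like cells, by contrast, Igfbp5 was lowest in control_4d (94.1 and 100.8 CPM).

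Inside the classes, Igfbp6 was lower in RA at 4 dpf and higher at 7 dpf in each, although the size at 7 dpf varied. At 4 dpf it was lower in RA in all 4 mesenchymal-like classes by more than 2-fold, from 2.16-fold in fibroblast-like cells (961 to 446 CPM) to 5.01-fold in cycling mesenchymal-like cells (285 to 56.9 CPM). At 7 dpf it was higher in all 4, from 1.1-fold in fibroblast-like cells to 2.83-fold in skeletal progenitor-like cells (201 to 569 CPM). Igfbp5 at 4 dpf was lower in RA in fibroblast-like cells (567 to 256 CPM, 2.21-fold) and fibroblast precursor-like cells (1158 to 378 CPM, 3.06-fold), but not in the other 2 of the 4 classes. Skeletal progenitor-like cells had 94.1 CPM in control_4d and 98.9 CPM in RA_4d, with an interval of the ratio from 0.961 to 1.15, and cycling mesenchymal-like cells 100.8 and 101.5 CPM (0.817 to 1.24). At 7 dpf Igfbp5 was higher in all 4 classes, with the largest difference in skeletal progenitor-like cells (205 to 850 CPM, 4.14-fold). The mix of classes moved as well: skeletal progenitor-like cells were the largest mesenchymal class in control_7d (1429 cells) and fibroblast-like cells in RA_7d (1403 cells). With the classes weighted equally, Igfbp5 at 4 dpf fell by 0.67 on the log2 scale, under the 2-fold mark, while Igfbp5 at 7 dpf and Igfbp6 at 4 dpf stayed past it.

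**Figure D4:**
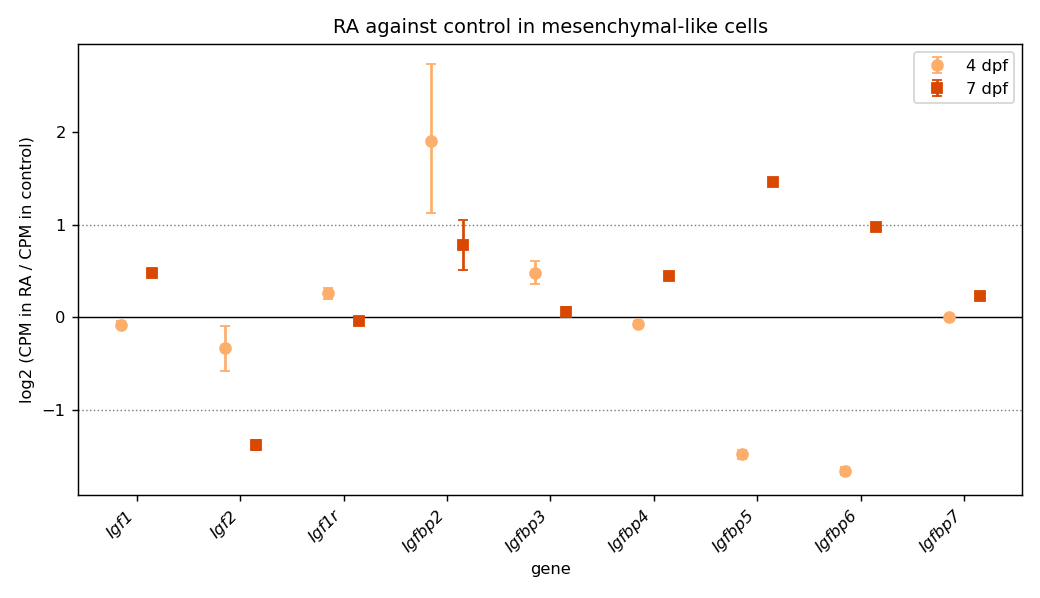
Log2 ratio of RA to control CPM in mesenchymal-like cells (y axis) for each of the 9 genes (x axis) at 4 and 7 dpf, with exact 95% counting intervals and dotted lines at 2-fold. Igfbp5 and Igfbp6 are the genes with a point near or beyond 2-fold on both sides of 0, at -1.47 and 1.46 and at -1.65 and 0.97.

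Tenocyte precursor-like cells, outside the mesenchymal sums, also had less of both in RA at 4 dpf and more at 7 dpf, with the highest value of each in control_4d: Igfbp5 was 1142 CPM in control_4d and 486 in RA_4d, then 653 in control_7d and 1101 in RA_7d, and Igfbp6 was 1123, 601, 550 and 898 CPM. In pericyte-like cells Igfbp5 was higher in RA at both times, at 1755 against 2440 CPM at 4 dpf and 1862 against 3072 CPM at 7 dpf.

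The promoter windows of Igfbp5 and Igfbp6 are shown because both genes were lower in RA at 4 dpf and higher at 7 dpf in the mesenchymal-like sums. They did not move together throughout. From 4 to 7 dpf in control, Igfbp5 was higher in 3 of 4 mesenchymal-like classes and Igfbp6 in 0 of 4. RefSeq holds windows for all 9 members (13 in total, GRCm38.p6), each running from 250 bases before to 50 bases after an annotated start. The window of Igfbp5 is chr1:72874816-72875115 on the - strand (56.3% GC) and that of Igfbp6 is chr15:102143936-102144235 on the + strand (49.7% GC). Capitals mark a TATA box (TATAAA), a GC box (GGGCGG) or a CCAAT box (CCAAT), each searched on both strands with no overlap among the matches found here.
Igfbp5: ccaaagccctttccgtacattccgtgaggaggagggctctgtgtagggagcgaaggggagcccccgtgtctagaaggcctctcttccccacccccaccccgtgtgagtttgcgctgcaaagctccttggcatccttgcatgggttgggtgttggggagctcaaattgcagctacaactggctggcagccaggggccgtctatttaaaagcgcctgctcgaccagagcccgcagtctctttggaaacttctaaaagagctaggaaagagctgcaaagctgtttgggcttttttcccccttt
Igfbp6: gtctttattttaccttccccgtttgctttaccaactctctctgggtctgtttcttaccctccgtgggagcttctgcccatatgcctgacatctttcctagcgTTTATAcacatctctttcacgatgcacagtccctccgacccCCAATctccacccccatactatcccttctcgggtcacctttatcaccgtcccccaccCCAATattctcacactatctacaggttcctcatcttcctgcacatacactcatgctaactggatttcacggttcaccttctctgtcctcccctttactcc
The Igfbp6 window held 2 CCAAT boxes and, on the opposite strand, 1 TATA box, and the Igfbp5 window held none of these letters. Only exact matches were searched, so related sequences were not counted. The Igfbp6 window ends at 102144235, before the gene start of 102144362 given above, so the annotations used here place that start differently. Of all 32851 windows, 13.6% held a TATA box, 35.7% a GC box and 37.4% a CCAAT box.

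Among the ligands, Igf2 differed more than Igf1. In mesenchymal-like cells Igf2 was at 13.3 CPM in control_4d, 10.6 in RA_4d, 128 in control_7d and 49.4 in RA_7d, so that the RA library was 2.59-fold lower at 7 dpf (2.5 to 2.69). The classes did not move together. Fibroblast-like cells had 292 CPM in control_7d and 62.1 in RA_7d, fibroblast precursor-like cells 217 and 10.98 (19.7-fold lower, 17.5 to 22.3), whereas skeletal progenitor-like cells had 38.4 and 64.6 and cycling mesenchymal-like cells 15.5 and 98.9. Tenocyte precursor-like cells had 46.2 CPM in control_7d and 3.86 in RA_7d, and 25.6 in control_4d against 1.22 in RA_4d. With the classes weighted equally the log2 ratio was -0.77, under the 2-fold mark. Igf1 was at 483 CPM in control_4d and 457 in RA_4d, and at 566 in control_7d and 786 in RA_7d (1.39-fold higher, 1.37 to 1.41). Inside the mesenchymal-like classes, Igf1 at 7 dpf was higher in RA in 2 of 4 (log2 -0.335 to 0.961). The largest rise was in skeletal progenitor-like cells, from 344 to 670 CPM. Tenocyte precursor-like cells had less Igf1 in RA at both times (860 to 418 and 1057 to 727 CPM). At resolution 1, the Ibsp-led skeletal progenitor-like cluster, low in Igf1, had 736 cells in control_7d and 462 in RA_7d. The Sfrp1-led cluster had 562 and 563 cells, and the part of this mix in the higher level was not tested.

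**Figure D5:**
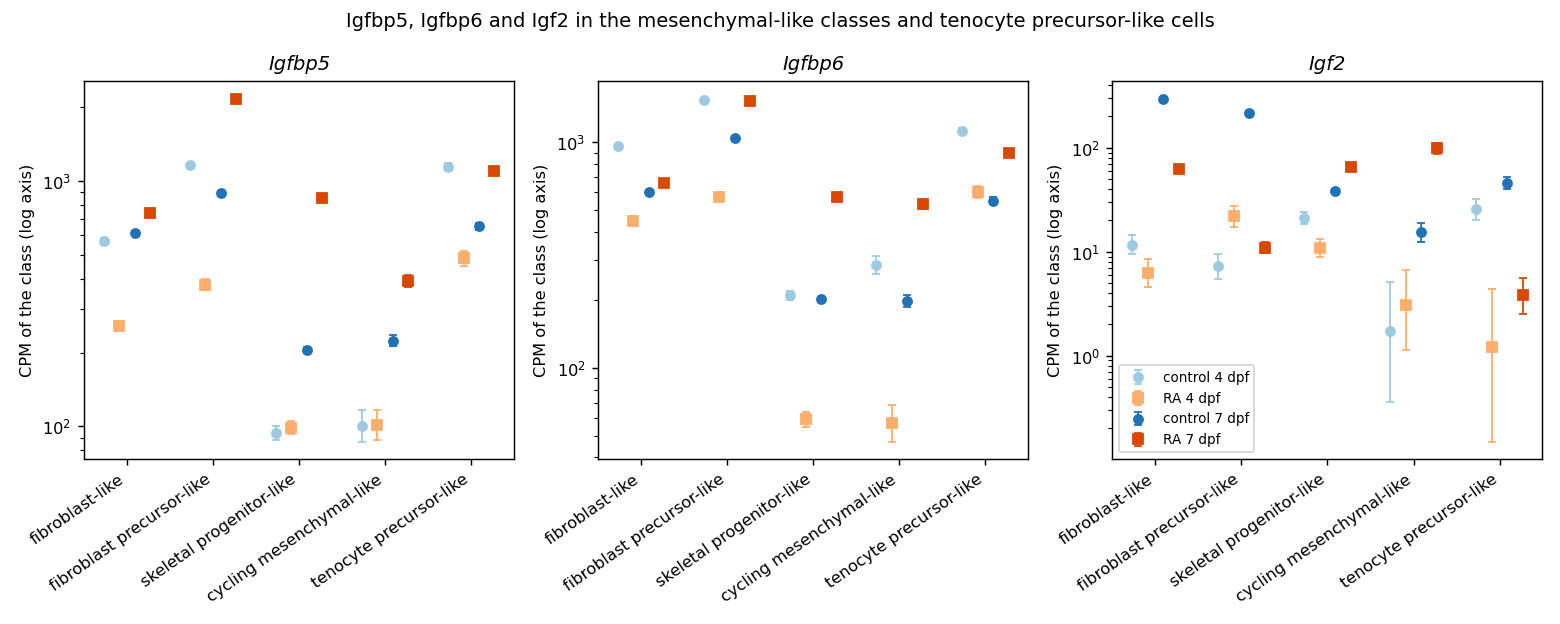
Igfbp5, Igfbp6 and Igf2 in CPM of the class (y axes, log scale) in the 4 mesenchymal-like classes and tenocyte precursor-like cells (x axes), 1 point per library with its exact Poisson 95% interval. For Igfbp6 the RA point lies below control at 4 dpf and above it at 7 dpf in each class, and Igf2 in fibroblast precursor-like cells is 217 in control_7d and 10.98 in RA_7d.

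Of the other members, Igfbp4, Igfbp7, Igf1r and Igfbp3 were under the 2-fold mark at both times. Igfbp4 was at 1032 and 983 CPM at 4 dpf and at 1009 and 1371 CPM at 7 dpf (control and RA), Igfbp7 at 970 and 969 and at 751 and 880 CPM, and Igf1r at 166 and 199 and at 188 and 183 CPM. Igfbp3 was at 35.3 and 49.3 CPM at 4 dpf and at 61.9 and 64.4 CPM at 7 dpf. Igfbp2 was called higher in RA at 4 dpf from 19 and 58 UMIs, 3.72-fold without the added CPM (2.18 to 6.62), and stayed near the floor of detection.

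Between 4 and 7 dpf, mesenchymal-like cells gained Igf2 in both arms. In control the level was 9.63-fold higher at 7 dpf (8.67 to 10.7), the single call among 9 members, beside 2.06% of 15855 genes higher and 1.61% lower. In RA the level of Igf2 was 4.67-fold higher (4.1 to 5.34), and Igfbp5 (6.19-fold, 6.0 to 6.38) and Igfbp6 (3.42-fold, 3.33 to 3.51) were called higher too, beside 1.98% of 16194 genes higher and 1.35% lower. Inside the classes, Igf2 was higher at 7 dpf in 4 of 4 in control and 3 of 4 in RA. Fibroblast precursor-like cells of the RA arm were lower (log2 -0.93). Igfbp6 in control was 1.8-fold lower at 7 dpf over the lineage, and its log2 ratios inside the 4 classes ran from -0.68 to -0.056. Igfbp5 in control was also lower over the lineage, at 529 CPM at 4 dpf and 427 CPM at 7 dpf. Inside the classes Igfbp5 was higher at 7 dpf in 3 of 4, past 2-fold in 2 (log2 -0.371 to 1.143). The part of the class mix in these lineage values was not tested. Igf1 was 1.17-fold higher in control, where 2 of 4 classes were higher, and 1.72-fold higher in RA, where 3 of 4 were. The controls of these comparisons also serve the RA comparisons above, so the time courses are not separate evidence.

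In macrophage-like cells the members with a clear level differed little between RA and control. Igf1 was at 212 CPM in control_4d and 203 in RA_4d, and at 274 in control_7d and 354 in RA_7d (1.29-fold higher, 1.24 to 1.34). Igfbp4 was at 140 and 123 CPM at 4 dpf and at 118 and 166 CPM at 7 dpf, and Igf1r at 65.9, 68.2, 61.8 and 78.0 CPM. The calls were all of members at or below 16 CPM: Igfbp3 and Igfbp6 were lower in RA at 4 dpf (2 of 7 compared, beside 0.564% of 12234 genes lower and 0.286% higher), and Igfbp5 was higher in RA at 7 dpf (1 of 8, beside 0.983% of 11704 genes higher and 0.325% lower), at 15.7 against 4.52 CPM. The mesenchymal marker list in the same cells was 0.61% and 0.423% of its mesenchymal level in control_4d and RA_4d and 1.49% and 1.4% in control_7d and RA_7d, while Igfbp5 was 0.593%, 0.597%, 1.06% and 1.34%. The part of free RNA in these calls was not tested. Over time, Igf2 was called higher in control at 7 dpf (1 of 8, beside 0.952% of 12396 genes higher and 0.363% lower) from 0.262 and 2.61 CPM, and Igfbp5, Igfbp6 and Igfbp7 in RA (3 of 6, beside 3.26% of 11518 genes higher and 0.807% lower), none above 18 CPM. Igf1 was 1.29-fold higher at 7 dpf in control and 1.75-fold higher in RA.

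Endothelial-like cells differed in Igfbp3. It was at 181 CPM in control_4d and 111 in RA_4d, and at 278 in control_7d and 112 in RA_7d, which is 2.48-fold lower at 7 dpf. This was the only member called lower (1 of 8), beside 0.996% of 13054 genes lower and 1.09% higher. Igfbp5 was called higher in RA at both times, at 8.01 against 21.9 CPM at 4 dpf (1 of 8, beside 0.395% of 12399 genes higher and 0.581% lower) and at 11.2 against 28.9 CPM at 7 dpf. The share of endothelial-like cells with an Igfbp5 UMI was 4.275% in control_4d and 3.46% in RA_4d, and 7.58% in control_7d and 14.2% in RA_7d, so at 4 dpf the higher level lay in a small share of cells that was not larger in RA. In the Gpihbp1-led class alone, where Igfbp3 is concentrated, it was 1.59-fold lower at 4 dpf (332 to 209 CPM) and 1.8-fold lower at 7 dpf (453 to 251 CPM), values under the 2-fold mark. That class was 314 of 655 endothelial-like cells in control_4d, 205 of 462 in RA_4d, 445 of 831 in control_7d and 430 of 1109 in RA_7d.

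The other 50 genes of the IGF list, which hold further receptors, proteases of the binding proteins, signalling adaptors and imprinted neighbours, gave 3 calls at each time in mesenchymal-like cells. At 4 dpf, 46 were compared, 2 were higher in RA (Pappa and the imprinted gene Dlk1) and 1 lower (the integrin gene Itgb3), beside 1.65% of all genes called in either direction. Pappa, whose product cleaves IGFBP4, was at 26.1 CPM in control_4d and 55.6 in RA_4d and at 56.0 in control_7d and 23.0 in RA_7d, higher in RA at 4 dpf and lower at 7 dpf, the reverse of Igfbp5 and Igfbp6. At 7 dpf, 2 of 46 were higher in RA, namely Pappa2 (2.29 to 5.84 CPM), a protease of IGFBP3 and IGFBP5, and the serine protease gene Htra3 (73.5 to 153 CPM), and Pappa was lower, beside 2.89% of all genes. Dlk1, an imprinted gene like Igf2, went from 6.66 CPM in control_4d to 201 in control_7d and from 24.0 in RA_4d to 115 in RA_7d. In macrophage-like cells none of 38 genes at 4 dpf and none of 40 at 7 dpf was called between RA and control, beside 0.85% and 1.31% of all genes, and in endothelial-like cells the insulin receptor gene Insr (96.5 to 197 CPM) was the single call, 1 of 43 at 7 dpf and none of 38 at 4 dpf, beside 2.08% and 0.976% of all genes. Between macrophage-like and mesenchymal-like cells, 3 of 45 compared genes of the list were higher in macrophage-like cells in every library (the adaptor Grb2, the kinase Pdpk1 and the integrin Itgav) and 17 were lower, among them Ghr, the growth hormone receptor, and Pappa, beside 12.6% and 21% of all genes compared.

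Across the 17 named classes, the genes whose mean log2(CPM + 1) followed a member most closely, among 7096 genes, were Gas6 for Igf1 (Pearson r = 0.946), Gaa (0.904) and Lrpap1 (0.888). Igfbp6 was followed by Pamr1 (0.976), Lum (0.975) and Sfrp4 (0.975), Igfbp7 by Adamts9 (0.972), Adamts1 (0.961) and Fbxl7 (0.953), and Igfbp5 by Map1lc3a (0.958), Klhl29 (0.954) and Kirrel (0.949). Igfbp4 was nearest to Cped1 (0.905), Nucb1 (0.898) and C2 (0.892), Igfbp3 to Myh10 (0.868), Lpar4 (0.866) and Mxra7 (0.864). Igf2 was nearest to Sox11 (0.899), Bmp6 (0.892) and Fbxo10 (0.853), Igf1r to Brd3 (0.914), Ncam1 (0.853) and Fbxo10 (0.853), and Igfbp2 to Lin7a (0.917), Capn6 (0.91) and Adcy2 (0.908). Among the members themselves, Igf1 was most like Igfbp4 (0.788) and Igfbp6 (0.734) and least like Igf1r (0.074). These correlations describe 17 classes that share 4 libraries, and carry no test.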

How the data were processed

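Callus cells of 4 pooled libraries were profiled with the 10x Genomics Chromium 3' kit (v3.1). With Cell Ranger 7.0.1 and the mm10 reference the authors made, and deposited, counts, that is whole UMI counts per gene and barcode with no normalization. Members, lists and comparisons were chosen with earlier results of these data known.

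Cells with 4000 to 50000 UMIs, 2000 to 7000 genes and at most 8% mitochondrial UMIs were kept, the filter of the study's methods. Seurat 5.3.0 integrated the libraries by canonical correlation (2000 variable genes, 30 dimensions, the IGF list left out), and clusters were made on 15 components at resolution 0.5. Clusters were named from marker lists with thresholds set after the clusters were seen. Scrublet (scanpy 1.11.5) called 2.32% of cells doublets, which were kept. UMIs were summed per class and library and divided by the class total (CPM). Intervals are exact (Poisson, Clopper-Pearson or conditional for ratios, 95%). With 1 library per condition there is no test: genes with 50 or more UMIs over both libraries and a log2 ratio of at least 1 in size (pseudocount 1 CPM) were called. The ratio step was tested on simulated counts at 7 dpf, where 193 of 193 changed genes in mesenchymal-like cells came out in the right direction and 95.6% of intervals held the true value. All 9 members are named; other listed genes are given as counts and by name where called, and the 3 genes most alike by class are given. The dendritic cell-like class, which had more markers of other lists than its own among its leading genes, and 2 unnamed clusters were not compared between conditions. Gene positions are from GENCODE M21 and promoters from RefSeq. Alternatives were other resolutions, no integration, the IGF list among the variable genes, marker gating cell by cell, no doublets, TMM scaling, a pseudocount of 10 CPM, 10 UMIs as the minimum, thinning to 4000 UMIs, equal class weights, tenocyte precursor-like cells within the mesenchymal sums, and each library left out for Igf1.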

Additional observations from a re-analysis of the deposited data

Results flagged for a closer look

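Igfbp5 and Igfbp6 were picked out because RA and control differed in opposite directions at 4 and 7 dpf, with counting intervals off 0 at both times and at least 1 of the 2 past 2-fold. Under 2-fold at both times, Igf1 (-0.08 and 0.47 on the log2 scale) and Igfbp4 (-0.07 and 0.44) in mesenchymal-like cells, Igf1 (-0.07 and 0.37) and Igfbp4 (-0.19 and 0.49) in macrophage-like cells and Igfbp6 in endothelial-like cells (-0.73 and 0.35) also changed sign, so the reversal is not particular to Igfbp5 and Igfbp6. The rule was applied to the members only, so the share of all genes that meet it is not known. Whether the 2 times differ was not tested, since each condition is 1 library. In mesenchymal-like cells the log2 ratio of RA to control went from -1.47 to 1.46 for Igfbp5, a change of 2.93, and from -1.65 to 0.97 for Igfbp6, a change of 2.62. In macrophage-like cells it went from -0.95 to 1.60 for Igfbp5, a change of 2.55, and from -1.01 to 0.46 for Igfbp6, a change of 1.47, at levels of 1.14 to 15.7 CPM and 5.83 to 15.5 CPM, which are 0.593% to 1.34% and 1.59% to 2.47% of the mesenchymal level in the same libraries.

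Igf2 at 7 dpf was picked out because 2 mesenchymal-like classes passed 2-fold in opposite directions. RA over control was -4.18 on the log2 scale in fibroblast precursor-like cells and 2.60 in cycling mesenchymal-like cells, a difference of 6.78, which was not tested.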

How the results depend on the processing

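Limits: with 1 library per condition, no difference between conditions has a replicate check, and shares of cells depend on capture. No paired analysis was possible because each condition had 1 library. No result turned its sign under any alternative. For Igf1 in macrophage-like against mesenchymal-like cells (log2 -1.14), leaving out each library in turn gave -1.17 to -1.12, and the value was -1.29 at resolution 1, -1.25 with lineages gated cell by cell, -1.28 with cells thinned, -0.98 without integration and -0.94 with TMM scaling. The share of macrophage-like cells with an Igf1 UMI averaged 47.2% thinned and 65.7% unthinned. The count of members past 2-fold moved by over 1.5 times in these cases, and the cause was not tested. RA against control in mesenchymal-like cells at 7 dpf gave 1 member (Igfbp5) with equal class weights instead of 2. For 7 against 4 dpf in control mesenchymal-like cells, resolutions 0.25 and 1, no integration, equal class weights and added tenocyte precursor-like cells gave 2 instead of 1. In endothelial-like cells a pseudocount of 10 CPM or equal class weights gave 0 instead of 1 at 4 dpf and 1 (Igfbp3) instead of 2 at 7 dpf. In macrophage-like cells, where all calls were of members at low levels, RA against control at 4 dpf gave 0 with a pseudocount of 10 CPM and 1 with the IGF list among the variable genes, with gating or with thinning, instead of 2, and at 7 dpf 0 with gating or a pseudocount of 10 CPM instead of 1. For 7 against 4 dpf in macrophage-like cells, control gave 2 with gating and 0 with a pseudocount of 10 CPM or with thinning instead of 1, and RA gave 5 with gating and 1 with a pseudocount of 10 CPM instead of 3. Other counts stayed within 1.5 times of the reported ones.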
